A study of Mus musculus and Rattus norvegicus with 28 samples.

Results

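Of 113857 regions obtained by merging the ATAC-seq peaks of perinatal mouse cardiomyocytes, 1048 carried a peak in all 6 libraries from the first postnatal week, sampled on days 1, 3 and 7 after birth (P1, P3 and P7), and in neither library from embryonic day 18.5 (E18.5). These neonatally open regions were chosen by the measured peaks themselves, with 1 bp of overlap sufficient to merge peaks. Their peak strength and the missing E18.5 peak are therefore descriptions and carry no test. The cells came from the left ventricles of wild-type C57BL/6 mice of both sexes, without any transgene or treatment, and were dissociated with trypsin and collagenase. Non-cardiomyocytes that attached to plastic in a pre-plating step were discarded. Each time point had 2 ATAC-seq and 2 poly(A) RNA-seq libraries, which were biological replicates per the study's methods. P values therefore measure the spread between these pairs of libraries only.

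ATAC-seq cuts DNA where chromatin is accessible, so a peak marks a stretch that is not tightly packed around nucleosomes. Active promoters are usually accessible in many cell types and stages, whereas enhancers, which act on genes at a distance, open in particular cells and at particular times. After birth the heart muscle cell leaves the cell cycle, shifts its fuel from glucose towards fatty acids and meets a growing extracellular matrix laid down mostly by fibroblasts. Transcription factors of the AP1, TEAD, MEF2 and GATA families bind short DNA words in cardiac enhancers.

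The sequences of 7 neonatally open regions are shown because they lie next to the results that follow. Gm29327 and Gm36264 label the strongest regions farther than 2.5 kb from a transcript start, Asb5 and Apol7a are among the strongest within it, and Prkar2b, Cemip and Serping1 are nearest genes whose RNA rose at P1, P3 and P7. Each line gives 200 bases of the plus strand of GRCm38 (mm10) around the median summit of the 6 neonatal peaks, named by the nearest gene. Capitals mark the letters TGACTCA (AP1), CATTCC (TEAD), GGGCGGG (KLF/SP) or AGATAA, the word of the GATA factors, or their reverse complements.
Gm29327, chr7:70267140-70267339: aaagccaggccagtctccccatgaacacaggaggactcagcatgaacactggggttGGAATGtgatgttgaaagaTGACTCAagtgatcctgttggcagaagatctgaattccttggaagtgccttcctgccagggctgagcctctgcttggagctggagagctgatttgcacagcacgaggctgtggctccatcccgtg
Gm36264, chr13:9061487-9061686: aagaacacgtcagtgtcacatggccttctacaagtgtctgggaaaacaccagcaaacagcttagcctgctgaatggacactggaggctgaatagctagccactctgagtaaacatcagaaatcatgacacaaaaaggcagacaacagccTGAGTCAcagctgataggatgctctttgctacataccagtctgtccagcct
Asb5, chr8:54548427-54548626: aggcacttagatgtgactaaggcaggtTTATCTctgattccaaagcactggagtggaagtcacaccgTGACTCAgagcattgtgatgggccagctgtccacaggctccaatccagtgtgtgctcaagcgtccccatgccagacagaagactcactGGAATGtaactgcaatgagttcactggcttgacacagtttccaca
Apol7a, chr15:77397974-77398173: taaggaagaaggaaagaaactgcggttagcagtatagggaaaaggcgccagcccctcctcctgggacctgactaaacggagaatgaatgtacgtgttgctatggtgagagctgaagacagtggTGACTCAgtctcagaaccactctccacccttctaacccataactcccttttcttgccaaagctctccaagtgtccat
Prkar2b, chr12:32017693-32017892: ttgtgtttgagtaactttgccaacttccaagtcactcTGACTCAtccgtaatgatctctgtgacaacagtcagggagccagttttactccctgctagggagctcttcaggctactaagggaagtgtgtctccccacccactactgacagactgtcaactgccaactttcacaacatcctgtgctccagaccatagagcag
Cemip, chr7:84088247-84088446: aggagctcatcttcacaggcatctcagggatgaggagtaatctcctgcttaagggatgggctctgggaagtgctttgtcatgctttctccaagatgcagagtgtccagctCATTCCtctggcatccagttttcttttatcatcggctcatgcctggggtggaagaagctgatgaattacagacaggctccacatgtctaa
Serping1, chr2:84774847-84775046: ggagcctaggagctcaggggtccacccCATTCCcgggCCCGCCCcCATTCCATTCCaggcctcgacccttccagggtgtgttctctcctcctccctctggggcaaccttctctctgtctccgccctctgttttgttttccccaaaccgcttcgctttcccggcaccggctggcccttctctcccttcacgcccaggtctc
The AP1 letters stand in the windows of Gm29327, Gm36264, Asb5, Apol7a and Prkar2b, and Gm29327 and Asb5 also hold the TEAD letters. The strongest region within 2.5 kb, beside 4930412L05Rik, and the strongest distal one after Gm36264, beside Gm25574, are not shown. Each of their windows holds 1 match to the TEAD letters and no AP1 letters. The Serping1 window, which lies 186 bp from a transcript start, has 64% G and C and holds the KLF/SP letters and 3 matches to the TEAD letters. The Cemip window holds 1 match to the TEAD letters. None of these windows overlaps an annotated untranslated region.

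The 8 peak lists differed in length, which bears on which regions could be chosen. The number of peaks was 13149 and 14910 (E18.5), 29281 and 19753 (P1), 95257 and 52040 (P3) and 49113 and 35898 (P7). The neonatally open regions were 1048 of the 7449 regions with a peak in all 6 neonatal libraries. Of the others, 5437 also had a peak in both E18.5 libraries and 964 in 1 of them. Only 23 regions showed the opposite pattern, with a peak in both E18.5 libraries and in no neonatal library. P1 replicate 2 set the size of the group, since 4697 of 5166 regions with 5 of the 6 neonatal peaks and no E18.5 peak lacked that library, and 5745 regions met the rule without it.

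The RNA libraries stood apart in cell type markers. The summed FPKM (fragments per kilobase of transcript, scaled to the depth of the library) of 14 cardiomyocyte genes ranged from 28371 to 36928 at E18.5, 14118 to 22527 (P1), 7731 to 9400 (P3) and 1101 to 2433 (P7). No cardiomyocyte gene of the list was at 0, and Tnnt2, cardiac troponin T, averaged 6657 FPKM at E18.5 and 519.9 at P7. The sum of 12 fibroblast genes ranged from 474.8 to 485.4 at E18.5, 1180 to 1407 (P1), 1592 to 1605 (P3) and 3005 to 3745 (P7). The sum of 7 erythroid genes was 29046 to 35395 at E18.5 and at most 41.05 in any neonatal library. By the cardiomyocyte and fibroblast sums, the cardiomyocyte label fitted the P7 libraries least. At E18.5, however, the erythroid sum was about as large as the cardiomyocyte sum. The paper reports high purity of the isolated cells, also at P7, from staining of cardiac troponin T protein. In these bulk samples, fewer cells of a type and less RNA per cell cannot be told apart.

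The fold enrichment of the neonatally open regions was highest at P3. Fold enrichment, the ratio of reads at the summit to the local background, had medians over the 1048 regions of 6.53 and 4.59 in the P1 libraries, 9.12 and 8.65 at P3 and 6.22 and 5.07 at P7. Both P3 libraries exceeded the other 4 in 657 regions (62.7%). The mean of the time point was highest at P3 in 910 regions (86.8%), at P1 in 132 and at P7 in 6.

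The rank of the regions within each list depended on the length of the list. The median region stood at percentile 69.9 and 44 of the P1 lists, 91.9 and 80 of the P3 lists and 79.9 and 65.7 of the P7 lists when peaks were ordered by score. Among the 13149 best peaks of each list, which sets the lengths equal, stood 69.5% and 75.9% of the regions in the P1 libraries, 65.5% and 58% in those of P3 and 61.2% and 54.5% in those of P7. At equal length the shares were highest at P1, whose lists were the shortest of the neonatal ones. Every chosen region needed a peak in these shorter lists, so the shares cannot order the time points. Across all 6 libraries, 278 regions (26.5%) ranked above the median score of every list. The summits were close together, since the strongest summits of the 6 libraries lay within 200 bp of each other in 873 regions (83.3%).

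**Figure D1:**
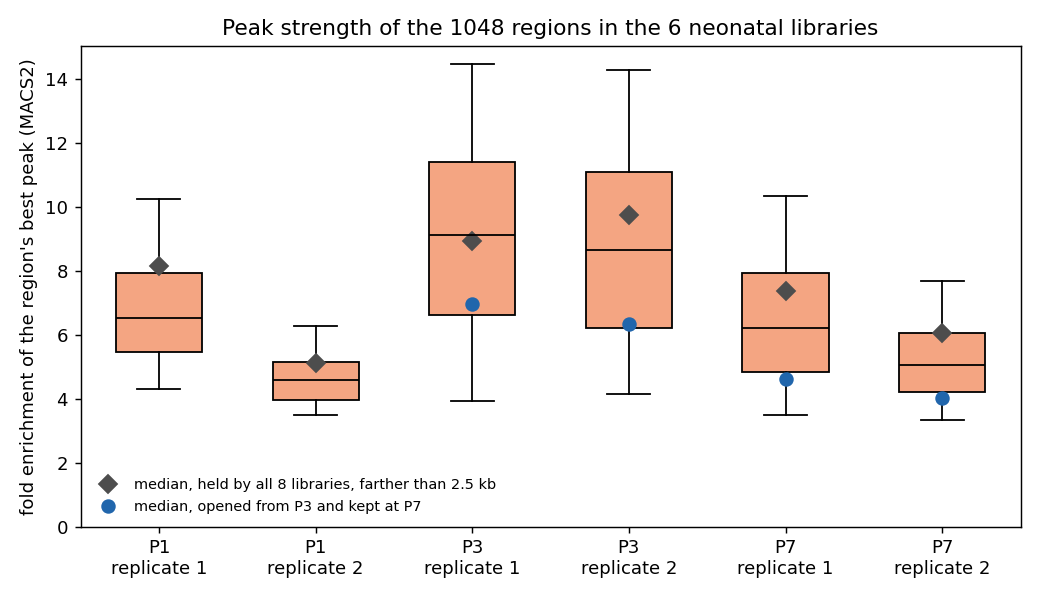
Fold enrichment of the strongest peak (y axis) in each neonatal ATAC-seq library (x axis) for the 1048 neonatally open regions, with boxes from the lower to the upper quartile, a line at the median and whiskers at the 5th and 95th percentiles. Medians were highest in the P3 libraries (9.12 and 8.65), where those of distal regions held by all 8 libraries were 8.93 and 9.75 (diamonds) and those of regions opened from P3 were 6.97 and 6.36 (circles).

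Compared with related groups of regions, the neonatally open ones were intermediate in strength. Regions that first carried peaks in both P3 libraries and kept them at P7 (7685) had lower medians of 6.97 and 6.36 at P3 and 4.62 and 4.03 at P7. Regions held by all 8 libraries and farther than 2.5 kb from a start had medians of 8.15 and 5.13 (P1), 8.93 and 9.75 (P3) and 7.37 and 6.07 (P7). Only in P3 replicate 1 did the median of the neonatally open regions, 9.12, lie above that of the distal regions held throughout. The rule used these peaks, so the differences were not tested.

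Absence of an E18.5 peak moved with strength and place. Among the 7449 regions with all 6 neonatal peaks, divided into 4 classes of strength, the share without an E18.5 peak was 30.9% in the weakest class, 14.7% and 8.65% in the middle classes and 2.1% in the strongest. It was 35.9% of the regions farther than 2.5 kb from a start and 5.16% of those nearer. Within the strongest class the shares were 9.90% and 0.517%. The part of the shorter E18.5 lists in this absence was not tested.

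At the edges of the rule, the weakest of a region's neonatal peaks had a median −log10 q of 3.86 and a lowest of 1.3, and it was under 2 in 72 regions. Just outside, the 964 regions with 1 E18.5 peak had a median E18.5 −log10 q of 5.22 and fold enrichment of 5.43. Of the chosen regions, 46 (4.39%) had an E18.5 peak within 1000 bp of their edge. The median distance to the nearest E18.5 peak was 24473 bp. With the 13149 best peaks of every list, 245 regions met the rule, of which 237 overlapped a neonatally open region.

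Most neonatally open regions lay away from promoters. The nearest annotated transcript start was within 2.5 kb of the midpoint for 273 regions, or 26.1% (95% Wilson interval 23.5 to 28.8%, which covers counting error only). This share was 83.2% (82.1 to 84.1%) for regions held by all 8 libraries, 34.1% (33.1 to 35.2%) for regions opened from P3 and 37.2% (36.8 to 37.6%) for all regions held by at least 2 libraries. With the full lists, the interval of the neonatally open regions did not overlap the others. The median distance was 8414 bp, against 111 bp for regions held by all 8 libraries and 6457 bp for those opened from P3. With the 13149 best peaks of every list the shares were 18.4% (14.0 to 23.7%) and 86.3% (85.0 to 87.4%) for the neonatally open regions and those held by all 8 libraries. Other stricter lists raised the share of the neonatally open regions. It was 44.16% with the upper-ranked part of each list and 37.84% at a −log10 q of at least 5. Shares of the other groups were not obtained under these settings. The lower share than in regions opened from P3 or held by at least 2 libraries therefore rests on the full lists.

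The largest class, 506 regions (48.3%), lay 2.5 to 20 kb from a start. Another 186 (17.7%) lay 20 to 50 kb away and 81 (7.73%) farther, while 155 (14.8%) lay within 500 bp. Of the 773 distal regions, farther than 2.5 kb, 403 (52.1%) had their midpoint in an intron, 333 (43.1%) outside genes and 37 (4.79%) in an exon. The regions were 607 bp wide at the median, between 198 and 1972 bp. Another such region lay within 5000 bp of 12 of them.

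**Figure D2:**
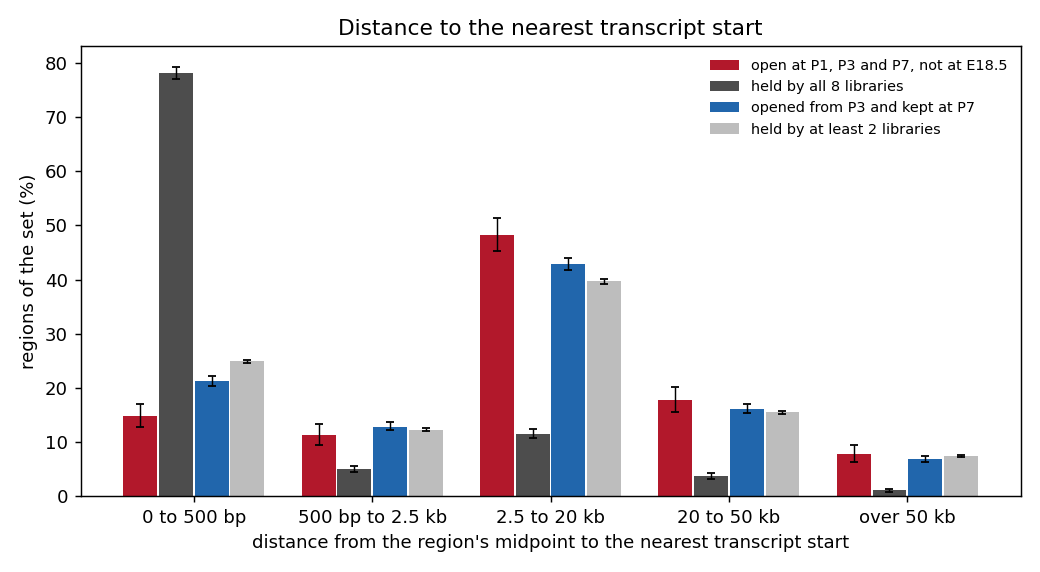
Share of regions (y axis, %) by distance from the midpoint to the nearest transcript start (x axis) for the neonatally open regions, regions held by all 8 libraries, regions opened from P3 and kept at P7, and regions held by at least 2 libraries. Bars are shares with 95% Wilson intervals, and 14.8% of neonatally open regions against 78.1% of those held by all 8 libraries fall within 500 bp.

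The base composition followed the place of the regions. In 400-base windows around the midpoint, the median share of G and C was 52.1% and the ratio of observed to expected CpG was 0.226, compared with 64.1% and 0.782 for regions held by all 8 libraries. Among distal regions the difference was smaller, with 51.1% and 0.203 against 53.9% and 0.280. Within 2.5 kb of a start the neonatally open regions also had less G and C (55.4% against 65.6%) and a lower CpG ratio (0.390 against 0.819). CpG-rich promoters are typical of broadly expressed genes.

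Words of the AP1 family, the Fos and Jun proteins, were common in the distal regions. The letters TGACTCA, looked for on either strand in the 200 bp to each side of the midpoint, stood in 281 of 773 distal regions, or 36.4% (33.0 to 39.8%). The share was 24.4% (21.7 to 27.4%) in distal regions held by all 8 libraries and 29.1% (28.7 to 29.6%) in all distal regions held by at least 2 libraries. It was 37% (35.6 to 38.3%) in distal regions opened from P3, so the intervals of these 2 neonatal groups overlapped. Among all neonatally open regions it was 31.9%.

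The AP1 share was larger in stronger regions. When the regions were divided into 4 classes by their weakest percentile, the letters stood in 25.5% (19.9 to 32.0%), 32.8%, 41.0% and 46.2% (39.4 to 53.2%) of the distal regions from the weakest to the strongest class. Of 353 AP1 matches within 100 bp of the summit, 234 lay within 50 bp. TEAD matches were less centred, with 185 of 326 within 50 bp. A match is a description of the letters, not a binding site.

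Other words differed from group to group in other ways. GGGCGGG (KLF/SP) stood in 4.79% (3.49 to 6.53%), against 16.3% (14.0 to 18.9%) of distal regions held by all 8 libraries and 5.48% (5.26 to 5.70%) of those held by at least 2. CATTCC (TEAD) stood in 36.9% (33.5 to 40.3%), with 32.7% (29.6 to 35.8%) in regions held by all 8 libraries. AGATAA, the word of the GATA factors, stood in 15.1% (12.8 to 17.8%), below the 19.7% (19.3 to 20.1%) of regions held by at least 2 libraries. In distal regions held by all 8 libraries the GATA share was 16.1% (13.8 to 18.7%), an overlapping interval. The CTCF consensus matched in 1.29% (0.704 to 2.37%), against 4.70% (4.15 to 5.32%) of the regions opened from P3. The CTCF share of distal regions held by all 8 libraries was 1.80% (1.11 to 2.91%), which overlapped that of the neonatally open regions. The MEF2 consensus matched in 4.14% (2.95 to 5.79%) and in 4.91% (4.70 to 5.13%) of regions held by at least 2 libraries, with overlapping intervals. Both AP1 and TEAD letters stood in 121 regions of any distance (11.6%), and none of the AP1, TEAD, GATA or KLF/SP letters in 339 (32.4%).

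**Figure D3:**
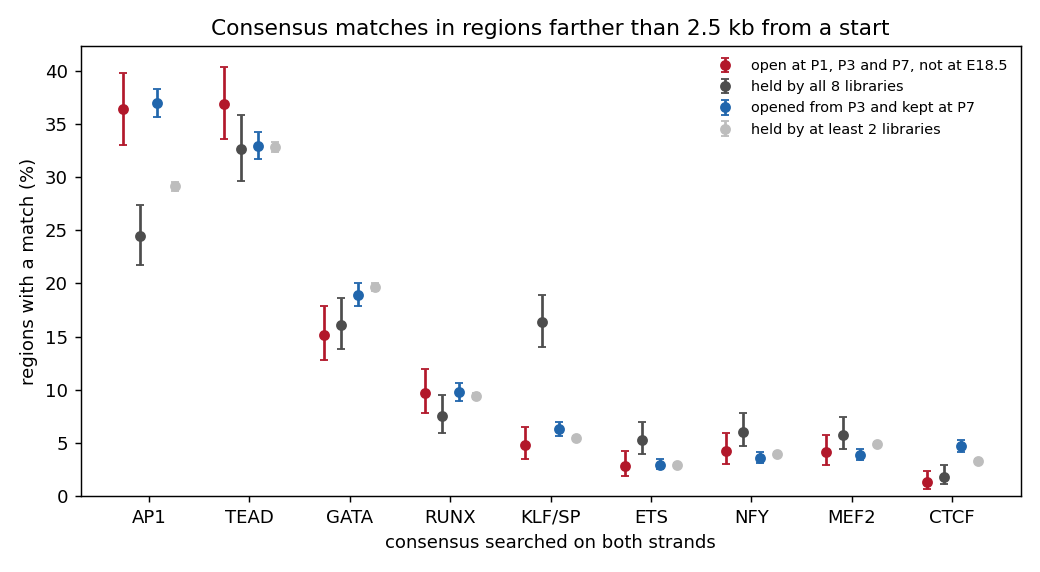
Share of distal regions (y axis, %) holding each consensus on either strand within 200 bp of the midpoint (x axis), with 95% Wilson intervals, for 4 groups of regions. The AP1 share is 36.4% in neonatally open regions, 37% in those opened from P3 and 24.4% in those held by all 8 libraries.

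The strongest neonatally open regions often lay beside genes that were not detected. The region with the highest weakest percentile was chr7:70266897-70267506. Its midpoint lies in an annotated intron, 17.4 kb upstream of the nearest start, which belongs to the noncoding gene Gm29327. The start of the protein-coding gene Nr2f2, which encodes an orphan nuclear receptor, lies 88036 bp away. The fold enrichment of the region was 14.4 and 9.04 (P1), 17.9 and 18.7 (P3) and 15 and 10.8 (P7). Gm29327 was listed at 0 FPKM in all 8 RNA libraries. The region beside Gm36264, chr13:9061333-9061970, reached 11.7 and 8.59 (P1), 16.1 and 17 (P3) and 15.2 and 10.1 (P7), and Gm36264 was listed at 0 as well. Among the 12 strongest, 7 had a nearest gene listed at 0 in every library.

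Asb5 and Slit3 were the strongest regions' neighbours whose RNA passed the test. Asb5, an ankyrin repeat protein with a SOCS box, had a region in an intron 1.80 kb from a start with fold enrichment from 6.87 (P1 replicate 2) to 17.6 (P3 replicate 2). Its FPKM was 0.580 and 1.41 at E18.5, 3.41 and 3.23 (P1), 7.55 and 6.78 (P3) and 9.02 and 9.10 (P7). Every neonatal library was above both E18.5 libraries, and the log2 fold change of P7 against E18.5 was 2.37 ± 0.21 (SE, limma adjusted p = 6.06e-05). Its P1 change of 1.15 ± 0.21 was 0.84 and no longer passed without E18.5 replicate 1. Slit3, a ligand of Robo receptors, had its region 55.1 kb away, and its FPKM was 2.89 and 2.59 at E18.5, 9.23 and 17.2 (P1), 12.3 and 11.7 (P3) and 15.7 and 16.8 (P7). It rose at all neonatal time points, with a log2 fold change of 2.20 ± 0.25 at P7 (limma adjusted p = 0.000174). Apol7a stayed low, with 0.284 and 0.207 FPKM at E18.5 and between 0.587 and 1.04 in the neonatal libraries, and did not pass. With 0.1 in place of 1 added to the FPKM it passed as higher at P1 and P3 (1.41 ± 0.39 and 1.51 ± 0.39). It belongs to a family of similar genes whose reads may be shared.

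The nearest genes numbered 1012, of which 980 had 1 region, 30 had 2 and 2 had 3. Of the 1048 regions, 615 were nearest to a protein-coding gene. A gene was tested when at least 2 libraries reached an FPKM of 1, which 530 of the 1012 did. The other genes included 208 listed at 0 in all 8 libraries, and short noncoding RNAs are not captured by poly(A) selection. A mean FPKM of at least 1 at E18.5 was found for 478 of them (90.2%, with 91.5% of all genes tested). Their median FPKM was 8.63 at E18.5, 11.4 (P1), 11.4 (P3) and 10.6 (P7), against 7.29, 8.49, 8.45 and 8.08 over the 13979 genes tested.

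After birth, more of the nearest genes were higher than lower. Calls required a limma adjusted p (Benjamini-Hochberg over all 13979 genes) under 0.05 and more than a 2-fold change on the log2(FPKM + 1) scale, which understates changes of low genes. At P1, 90 of 530 nearest genes rose (17%, with 10.1% of all genes tested) and 20 fell (3.77%, with 6.06%). At P3, 104 rose (19.6%, with 13%) and 37 fell (6.98%, with 8.88%). At P7, 116 rose (21.9%, with 15.4%) and 65 fell (12.3%, the same 12.3% as all genes). From P1 to P7 the direction differed, with 23 higher (4.34%, with 3.45%) and 47 lower (8.87%, with 5.46%). Fewer were lower without P1 replicate 2 or without P7 replicate 2, and fewer of all genes tested were lower there as well.

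Most nearest genes did not pass the test. No call in any comparison with E18.5 was made for 317 of 530 (59.8%), against 68.2% of all genes. The median log2 fold change was 0.32 (P1), 0.28 (P3) and 0.22 (P7), where all genes had 0.15, 0.16 and 0.15. The 3 comparisons share the E18.5 libraries. Rescaling by size factors moved the median of all genes to 0.04, 0.04 and 0.05. It gave 70 nearest genes higher and 28 lower at P1, and 80 and 46 at P3. Of all 13979 genes tested, it called 1107 higher and 1077 lower at P1, and 1476 and 1482 at P3. With TPM the medians of all genes were 0.38, 0.41 and 0.40. The counts of nearest genes were 144 and 11 (P1), 155 and 28 (P3) and 161 and 48 (P7). Of all 13979 genes tested, TPM called 2568 higher and 752 lower (P1), 3068 and 1056 (P3) and 3361 and 1576 (P7).

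**Figure D4:**
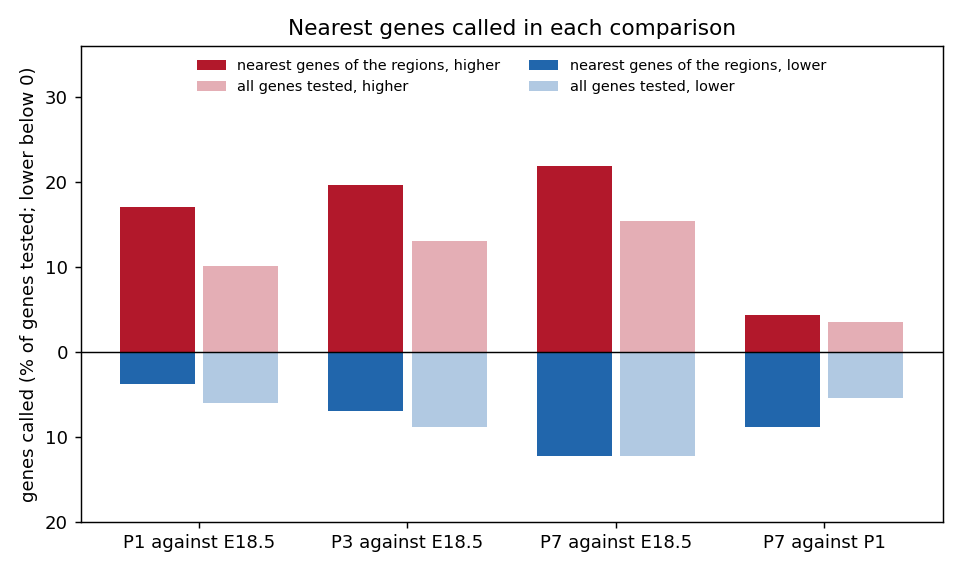
Share of tested genes (y axis, %) called higher (above 0) or lower (below 0) in each comparison (x axis) for the 530 tested nearest genes of neonatally open regions and for all 13979 genes tested. At P1 the shares called higher are 17% and 10.1%, and at P7 the shares called lower are both 12.3%.

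The share of rising genes was highest beside regions over 20 kb away. Among the 180 tested genes within 2.5 kb of a region, 16.1%, 14.4% and 17.8% were higher at P1, P3 and P7. Among the 245 at 2.5 to 20 kb, the shares were 15.9%, 21.6% and 22%. Among the 119 whose region lay over 20 kb away, the shares were 22.7%, 26.1% and 29.4%. Nearest genes of regions opened from P3 gave 16.8%, 20.6% and 23.8%, close to those of the neonatally open regions, and genes beside regions held by all 8 libraries gave 7.76%, 9.96% and 11.8%. Genes beside a region with the AP1 letters were higher in 19%, 22.1% and 27% of cases, and those beside a region without them in 16.8%, 19.2% and 20.5%. These groups share genes and libraries, and the differences were not tested.

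Against E18.5, 72 nearest genes (13.6%) rose at P1, P3 and P7 with every neonatal library above both E18.5 libraries, and 10 (1.89%) fell in the mirrored way. The shares over all genes were 8.17% and 4.59%. Within 50 kb, 65 of 502 tested nearest genes rose in this way, and 73 neonatally open regions lay beside them.

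Prkar2b, a regulatory subunit of protein kinase A, was among the 10 largest rises within 50 kb, and of those 10 it had the largest at P3, but not at P1 or P7. Its FPKM was 1.51 and 1.03 at E18.5, 50.7 and 10.9 (P1), 55 and 66.3 (P3) and 31.4 and 25.5 (P7). The P1 libraries differed several-fold from each other, yet both exceeded E18.5, and the log2 fold changes were 3.46 ± 0.55 at P1, 4.76 ± 0.55 at P3 and 3.69 ± 0.55 at P7 (limma adjusted p = 0.00214, 0.000345 and 0.000785). It had 2 intronic regions, and the one whose sequence holds the AP1 letters, chr12:32017557-32018242, lay 42.7 kb from the start with fold enrichment from 4.53 to 8.48.

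Cemip, which takes part in breaking down hyaluronan, was close to absent at E18.5. Its FPKM was 0.703 and 0.352 there, then 24.3 and 21.1 (P1), 26.4 and 25.1 (P3) and 22.5 and 17.7 (P7). It was at its neonatal level from P1, and its log2 fold change at P1 was 3.96 ± 0.18 (limma adjusted p = 1.86e-05). The region lay 1.85 kb upstream of a start, chr7:84088134-84088566, with fold enrichment between 3.44 and 6.71.

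Serping1, the inhibitor of the first complement component, rose from 13.1 and 15.1 FPKM at E18.5 to 193 and 195 (P1), 222 and 167 (P3) and 285 and 282 (P7). Gpr39, a zinc-sensing receptor, rose from 1.29 and 0.327 to 19.8 and 22.4 (P1), 24.9 and 20.1 (P3) and 29.9 and 29.2 (P7). Both had a region in an exon close to a start, at 186 bp for Serping1 and 96 bp for Gpr39. At P1 the log2 fold changes were 3.69 ± 0.15 and 3.66 ± 0.25 (limma adjusted p = 1.28e-05 and 5.8e-05).

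The other genes among the 10 largest rises were Bgn, Timp1, Pdpn, Myof, Bicc1 and Ptgis. Bgn, the proteoglycan biglycan, had 65.9 and 65.1 FPKM at E18.5, 428 and 374 (P1), 643 and 832 (P3) and 1065 and 1350 (P7). Timp1, an inhibitor of matrix metalloproteinases, had 24.3 and 18.1 at E18.5, 181 and 153 (P1), 257 and 284 (P3) and 417 and 492 (P7). Both kept rising between P1 and P7, by 1.58 ± 0.17 and 1.44 ± 0.17 on the log2 scale (limma adjusted p = 0.00108 and 0.00133). Timp1 lies inside the gene Syn1 on the other strand, and reads of overlapping genes could not be separated by strand. Pdpn, the membrane glycoprotein podoplanin, had 12.4 and 10.6 at E18.5 and 220 and 236 at P7. Myof, Bicc1 and Ptgis, which encode a membrane repair protein, an RNA-binding protein and prostacyclin synthase, had log2 fold changes at P7 of 3.74 ± 0.21, 3.77 ± 0.16 and 3.35 ± 0.13. Both Myof regions were intronic.

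Opening of a region was not always accompanied by more RNA of its nearest gene. Ddc, the aromatic amino acid decarboxylase, had 87.9 and 92.2 FPKM at E18.5, 20.5 and 46.3 (P1), 13.7 and 10.7 (P3) and 5.18 and 3.89 (P7). It fell by 4.05 on the log2 scale at P7 (SE 0.33, limma adjusted p = 4e-05), and its region lay 3.59 kb from the start outside genes. Frmd5, a FERM domain protein, had 17.2 and 22.6 at E18.5, 7.09 and 11.4 (P1), 7.11 and 6.85 (P3) and 1.46 and 0.945 (P7). Leaving out P1 replicate 1 brought the P1 change to −0.95 for Ddc and −0.74 for Frmd5 and ended both calls.

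Kdr, the receptor of vascular endothelial growth factor that marks endothelial cells, stood beside a strong region. Its fold enrichment was 10.8 and 5.43 (P1), 16.8 and 18.3 (P3) and 10.3 and 8.18 (P7), 12 kb from the start. Its FPKM fell from 28.0 and 13.1 at E18.5 to 4.76 and 6.70 (P1), 4.74 and 5.49 (P3) and 4.08 and 3.43 (P7). The log2 fold change at P7 was −2.09 ± 0.32 (limma adjusted p = 0.00082). Of 10 endothelial genes tested, 1 rose and 2 fell at P1, with a median log2 fold change of −0.42, and 2 rose and 1 fell at P7, with a median of 0.07. Of all genes tested, 10.1% rose and 6.06% fell at P1, and 15.4% rose and 12.3% fell at P7. The summed values of the endothelial list follow. The summed FPKM of the endothelial genes was 270.2 to 467.2 (E18.5), 397.1 to 440.8 (P1), 646.3 to 725.6 (P3) and 458.9 to 547.8 (P7). The part of endothelial cells in the fall of Kdr was not tested.

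The other falling genes were Dusp10, Siah2, Jmjd1c, Gadd45g, Rybp, Brd2 and M5C1000I18Rik. Dusp10, a phosphatase of stress-activated kinases, had 23.5 and 18.1 FPKM at E18.5 and between 4.57 and 6.10 in the neonatal libraries. Siah2, a ubiquitin ligase, had 18 and 23.8 at E18.5 and between 4.61 and 7.25 afterwards. Jmjd1c, of the histone demethylase family, had 29.3 and 21.0 at E18.5 and between 6 and 8.54 afterwards. For each of them the 6 neonatal libraries lay below both E18.5 libraries. Gadd45g, a growth arrest gene, Rybp, a Polycomb component, and Brd2, a bromodomain protein, had log2 fold changes at P7 of −1.58 ± 0.17, −1.25 ± 0.17 and −1.07 ± 0.13. With TPM the P1 changes of these genes were −0.83, −0.85 and −0.92 and their P3 changes −0.93, −0.89 and −0.79, none of which passed, and the P7 change of Brd2 was −0.81 and did not pass either. The noncoding gene M5C1000I18Rik fell by 1.25 at P7 (SE 0.20), from only 1.10 and 2.12 FPKM at E18.5, and its calls ended without E18.5 replicate 2.

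**Figure D5:**
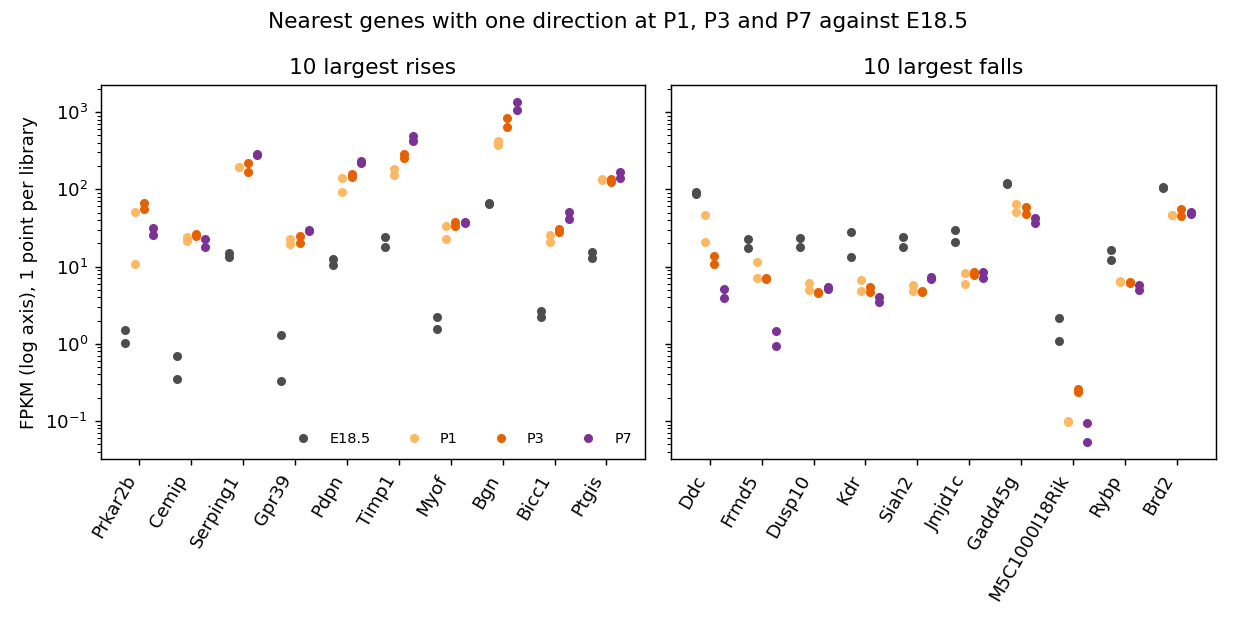
FPKM on a log axis (y axis) of the 10 nearest genes with the largest rises and the 10 with falls (x axis), 1 point per RNA-seq library coloured by time point. The E18.5 points of each rising gene lie below all its neonatal points (for Cemip at most 0.703 against at least 17.7), and those of each falling gene lie above them.

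By count, the list of extracellular matrix genes had the most neighbours, 7 of 30 tested (23.3%, with 3.79% of all genes tested nearest to such a region). Of all 30, 20 rose and 2 fell at P1, 23 rose and 1 fell at P3 and 26 rose and none fell at P7. Of all genes tested, 10.1%, 13% and 15.4% rose and 6.06%, 8.88% and 12.3% fell. The neighbours within 50 kb were Col4a1, Col4a2, Sparc, Bgn, Thbs2 and Timp1. Sparc, a collagen-binding glycoprotein, had 533 and 457 FPKM at E18.5, 1003 and 1116 (P1), 1161 and 1279 (P3) and 1723 and 1832 (P7), and it rose at P1, P3 and P7. Its P1 change was 0.96 with size factors and 0.99 without E18.5 replicate 2, and neither passed. Col4a1 and Col4a2, the basement membrane collagens, rose at P3 and P7, with log2 fold changes at P7 of 1.48 ± 0.24 and 1.35 ± 0.23. Without E18.5 replicate 2 their P3 changes were 0.75 and 0.71 and did not pass, nor did the P7 change of Col4a2 (0.99). Thbs2, a thrombospondin, rose at P3 and P7 (1.16 ± 0.19 and 1.81 ± 0.19). The fibroblast sum rose over the same time points, from at most 485.4 to at least 3005 FPKM, and its part in these values was not tested.

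Focal adhesion and actin genes had 4 neighbours of 22 tested (18.2%). Of the whole list, 8 rose (P1), 9 (P3) and 10 (P7), with 10.1%, 13% and 15.4% of all genes tested, while 1 fell at P7. With TPM the rising genes were 11, 16 and 15, with 2568, 3068 and 3361 of all 13979 genes tested. Lpp, a focal adhesion protein with 2 regions, had 2.75 and 1.26 FPKM at E18.5 and between 14.0 and 16.4 in the neonatal libraries (log2 fold change at P1 2.40 ± 0.23, limma adjusted p = 0.000232). Parva, an integrin-linked adaptor, had 19.4 and 18.4 at E18.5 and between 49.4 and 59.3 afterwards, and it rose at all neonatal time points. Actn4, an actin crosslinker, had log2 fold changes of 1.08 at P1, 1.00 at P3 and 0.69 at P7 (SE 0.11), of which the first passed, and with size factors the P1 change was 0.94 and did not. Vim, vimentin, had log2 fold changes of 0.38, 0.90 and 0.98 and did not pass. Cardiomyocytes, fibroblasts and smooth muscle cells all use these genes. The summed FPKM of the list was 4970 to 5640 (E18.5), 7579 to 8306 (P1), 6648 to 7149 (P3) and 5390 to 5760 (P7). The median log2 fold change of the list was 0.78 (P1), 0.97 (P3) and 0.98 (P7). The fibroblast sum was highest at P7, and its part in these values was not tested.

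Metabolic neighbours moved in both directions. Of 15 fatty acid oxidation genes tested, 10 fell (P1), 11 (P3) and 12 (P7), with 6.06%, 8.88% and 12.3% of all genes tested. At P7, 1 gene of the list rose, with 15.4% of all genes tested. The rising gene was Cpt1a, the carnitine palmitoyltransferase, whose region lay 12.1 kb from the start. Its FPKM was 10.9 and 12.7 at E18.5 and 27 and 29.2 at P7 (1.19 ± 0.23, limma adjusted p = 0.0029). Ppargc1a, a coactivator of mitochondrial genes, had 10.3 and 7.91 at E18.5, 4.16 and 7.19 (P1), 2.81 and 3.61 (P3) and 0.666 and 0.224 (P7), and it fell at P3 and P7. Slc25a20, the mitochondrial carnitine carrier, had a region 200 bp from a start and fell at P7 (−1.37 ± 0.15). Of 18 glycolysis genes tested, 2 fell (P1), 6 (P3) and 7 (P7), and 2 rose at P7. Of the neighbours in that list, Pfkp fell at P3 and P7, and Eno1, enolase, did not pass, with 0.96 ± 0.14 at P7. The cardiomyocyte sum fell over the same time points, and its part in these values was not tested.

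The signalling and cell type lists had few neighbours by count. By share, the TGF beta, YAP and TEAD list stood highest of all lists, with 4 of 16 genes tested (25%). Smooth muscle and pericyte genes had 2 of 10 (20%), and MEF2 factors and class IIa HDACs 1 of 7 (14.3%). Endothelial genes had 1 of 10 (10%) and fibroblast genes 1 of 12 (8.33%). The share of all genes tested was 3.79%. Of 16 TGF beta, YAP and TEAD genes tested, Smad3, Smad7, Tead1 and Amotl1 were nearest to a neonatally open region, and none of the 4 passed the test in any comparison. The E18.5 libraries disagreed for Tead1 (2.28 and 9.90 FPKM), and without E18.5 replicate 1 it passed as lower at P7 (−1.31 ± 0.27, limma adjusted p = 0.00894). At P7 their log2 fold changes were 0.66 ± 0.21, 0.39 ± 0.26, −0.45 ± 0.48 and 0.48 ± 0.18. Hdac4, a class IIa histone deacetylase that restrains MEF2 factors, kept between 1.75 and 3.29 FPKM in all 8 libraries and did not pass either. Acta2, smooth muscle actin, rose at P7 (1.59 ± 0.17), as did Notch3, a receptor of pericytes and smooth muscle (1.93 ± 0.25). Dpt, the matrix protein dermatopontin of fibroblasts, was lower at P1 (−1.07 ± 0.29) and higher at P7 (1.05 ± 0.29), and both calls ended without E18.5 replicate 2. None of the listed cardiomyocyte, macrophage, erythroid, epicardial, AP1 family or cell cycle genes was nearest to a neonatally open region.

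The AP1 family list held genes that fell and genes that did not pass. Of 12 tested, 6 fell (P1), 7 (P3) and 5 (P7), with 6.06%, 8.88% and 12.3% of all genes tested, and 1, Fosl1, rose at P7. With TPM, 6, 5 and 5 fell, 1 rose at P3 and 2 rose at P7, where the median log2 fold change of the list was −0.16. Fos, an immediate early gene, averaged 171 ± 15 FPKM at E18.5 and 7.63 ± 3.99 (P1), 6.09 ± 1.22 (P3) and 8.59 ± 1.38 (P7) thereafter (SD, n = 2). Fosb, Jun and Atf3 also fell at each neonatal time point. Fosl1 averaged 11.8 ± 4.27 at E18.5 and 27.1 ± 1.47 at P7. How the AP1 letters in the regions relate to this RNA was not tested.

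Phldb2 and Gm47175 had the most regions. Phldb2, a cortical protein that anchors microtubules near adhesions, had 3 regions at 8.85, 15.4 and 27.1 kb from its start. The nearest of them reached a fold enrichment of 11.3 and 14.0 at P3. Its FPKM was 23.1 and 16.3 at E18.5, 52.5 and 49.7 (P1), 59.8 and 63.0 (P3) and 54.4 and 63.5 (P7), and it rose at all neonatal time points (1.35 ± 0.17 at P1, limma adjusted p = 0.000743). The noncoding gene Gm47175, also with 3 regions, stayed under 1.5 FPKM and did not pass. With TPM it passed as higher at P1, P3 and P7 (1.04, 1.28 and 1.19), and also with 0.1 in place of 1 added to the FPKM. Aff1, a transcription elongation factor with 2 regions, stayed between 5 and 7.01 FPKM, and 2310043O21Rik was listed at 0 throughout.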

How the data were processed

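Reads were trimmed with cutadapt, aligned to mm10 with Bowtie2 and called as peaks with MACS2 by the authors, 1 deposited list per ATAC-seq library, with blacklisted regions removed. In the deposited lists the authors' MACS2 gives a score, a summit fold enrichment (a ratio to the local background) and −log10 q per peak. RNA-seq files hold transcript FPKM and TPM, made by the authors with HISAT2 2.1.0 and StringTie 1.3.5 (submitters' processing notes), and gene values were summed over transcripts. Aligned bases ranged from 4.40 to 5.63 gigabases per RNA library. The library kit marks no strand as far as stated, so overlapping genes were not separated. Reads, rat libraries and HiChIP were not analysed here.

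Peaks sharing 1 bp were merged, and distances ran from region midpoints to starts in the deposited annotation (2 regions on scaffolds had none). Motifs were searched in the GRCm38 genome of the files' build. Deposited FPKM were not counts, so log2(FPKM + 1) was fitted with limma 3.58.1 (eBayes with trend, all 8 libraries in 1 fit, Benjamini-Hochberg over the 13979 genes that reached 1 FPKM in 2 libraries or more) and tested on simulated data. Named genes are the nearest genes of the 12 strongest regions, the 10 largest rises and falls called at P1, P3 and P7 without overlap and within 50 kb, list genes within 50 kb, and the 5 genes with most regions. Regions, lists and tests were chosen with earlier results of these data known.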

Additional observations from a re-analysis of the deposited data

How the results depend on the processing

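The size of the group depended on the peak lists. It was 245 regions with equal numbers of top peaks, 693 with the upper 0.5 of each list, 436 with a −log10 q of at least 5, and 1054 to 5745 when single ATAC-seq libraries were left out, the highest without P1 replicate 2. The share within 2.5 kb of a start was 18.37%, 44.16% and 37.84% under the first 3 settings, 24.26% to 37.44% without single libraries (highest without E18.5 replicate 1), 18.32% with RefSeq protein-coding starts, 17.56% at a limit of 1 kb and 37.98% at 5 kb. Merging at 100 bp of overlap gave 1031 regions and 26.38%. Leaving both P7 ATAC-seq libraries out of the rule, chosen after seeing the data, gave 1208 and 26.32%. In the narrower window within 100 bp of the summit, 10 motif shares of the neonatally open regions left their interval and 4 did not. At any distance from a start, AP1 went from 31.9% to 28.8% and TEAD from 35.4% to 25.8%. The AP1 share in this window was 6.34% in regions held by all 8 libraries and 25.8% in those opened from P3.

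Nearest genes taken among tested genes only gave more calls by construction, with 167 higher and 48 lower (P1), 199 and 74 (P3), 207 and 113 (P7) and 45 and 77 (P7 against P1). Regions from equal numbers of top peaks left fewer genes and gave 26 and 4, 34 and 6, 36 and 7, and 9 and 4. Both settings kept the main fit. There, 10.1%, 13%, 15.4% and 3.45% of all genes tested were higher, and 6.06%, 8.88%, 12.3% and 5.46% lower. TPM gave 144 higher and 11 lower at P1, with 2568 and 752 of all 13979 genes tested. For P7 against P1, 15 were higher within 20 kb, with 482 of all 13979 genes tested. With a mean FPKM of at least 5 it was also 15, with 302 of 8944 genes tested. Without single RNA-seq libraries the ranges were 77 to 98 higher and 17 to 25 lower (P1), 94 to 113 and 34 to 40 (P3), 105 to 127 and 56 to 73 (P7), and 16 to 29 and 29 to 62 (P7 against P1), where in the last 29 were lower without P1 replicate 2 and 30 without P7 replicate 2. Without P1 replicate 2 or P7 replicate 2, fewer of all genes tested were lower for P7 against P1 as well. Without both P7 RNA-seq libraries, an alternative chosen after seeing the data, 89 were higher and 19 lower at P1, with 1415 and 849 of all 13979 genes tested. The causes were not tested where not named.

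Replicate numbers did not pair the samples, since correlations of deviations lay between −0.096 and 0.171. With the replicate block the counts were 90 and 20 (P1), 104 and 38 (P3), 116 and 66 (P7) and 23 and 47 (P7 against P1). Over all 13979 genes tested they were 1421 and 849, 1822 and 1240, 2160 and 1715, and 483 and 764. Of the named genes' values under all alternatives, 2792 kept their side of the threshold, 47 lost a call, 47 gained one and none was reversed. With 2 libraries per time point, small changes are not resolved, and FPKM carry no counting error.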
